A study of Mus musculus with 9 samples.

Results

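The signals of 8 genes were followed mouse by mouse in the large intestine of 2 strains with different missense mutations of Muc2, the gel-forming mucin of goblet cells, and in wild-type mice. The genes are Nxpe4, Lpo, Tmem87a, Myl7, Prune2, Trpm6, Slfn2 and Slfn4, out of 18193 genes with a probe set of their own on the array. They were selected on their log2 signal, for large differences between Eeyore and Winnie mice, so that every Eeyore minus Winnie value below is a description of that choice and carries no test. No numerical threshold defined them: ranked by the size of that difference among 11453 tested genes, Nxpe4 was 1, Tmem87a 2, Lpo 10 and Prune2 20, while among 22519 tested probe sets those of Myl7, Slfn2, Trpm6 and Slfn4 were 47, 168, 252 and 1501.

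The series holds 9 arrays, 1 per mouse, with 3 mice in each group. Eeyore mice derive from an ENU-mutagenised C57BL/6 founder, are of mixed C57BL/6 and NOD-SCID background, and have a serine to proline change in the C-terminal D4 domain of Muc2. Winnie mice are C57BL/6, also from ENU mutagenesis, with a cysteine to tyrosine change in the D3 domain. Wild-type mice are C57BL/6. All were labelled as male and 8 weeks old, and equal amounts of RNA from the proximal and the distal part were mixed for each animal. Strain background and Muc2 allele therefore cannot be told apart in any comparison with Eeyore mice. Sequence differences of NOD origin under the array's probes and differences in transcript level cannot be told apart either.

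The 3 wild-type mice went against their label: Xist, transcribed from the inactive X chromosome, averaged 83.9 ± 21.2 in Eeyore, 38.4 ± 26.8 in Winnie and 7849 ± 448 in wild-type mice (signal, SD, n = 3 each). Y-linked Eif2s3y averaged 1260 ± 63.7 in Eeyore, 1291 ± 196 in Winnie and 17.6 ± 11.1 in wild-type mice. Sex and genotype thus cannot be told apart in comparisons with wild-type, whereas Eeyore and Winnie mice all had Y-linked signal. All 8 genes are autosomal. Arrays of a group correlated at 0.948 to 0.967, and median signals were 95.5 to 99.3 in Eeyore, 87.9 to 95.2 in Winnie and 118 to 129 in wild-type mice. Of 10 tested surface colonocyte markers, 1 was higher and 0 lower in Eeyore than in Winnie mice, and their summed signal was 213600 to 216500 in Eeyore, 192600 to 241800 in Winnie and 202200 to 230300 in wild-type mice. Of 10 tested goblet cell markers, 2 were higher and 0 lower in Eeyore than in Winnie mice, where 1.29% of all tested genes were higher. Their summed signal was 311500 to 366500 in Eeyore, 221600 to 271900 in Winnie and 335300 to 374600 in wild-type mice, without overlap between the 2 strains. All 15 smooth muscle markers were lower in each mutant strain than in wild-type, against 16.6% of all tested genes in Eeyore and 11.9% in Winnie mice. B cell markers were present in Eeyore mice despite the NOD-SCID label (Ms4a1, which encodes CD20, 643 ± 205 in Eeyore, 322 ± 67.8 in Winnie and 466 ± 60.2 in wild-type mice). Ms4a1 was not among the 3 brightest markers of its list. The brightest, Jchain, averaged 26130 ± 7268 in Eeyore, 20917 ± 3576 in Winnie and 17436 ± 3936 in wild-type mice. In whole tissue, fewer cells of a type and less RNA per cell cannot be told apart.

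The genes have unrelated roles. Nxpe4 belongs to the neurexophilin and PC-esterase domain family. Lpo encodes lactoperoxidase, a secreted haem enzyme that uses hydrogen peroxide to make antibacterial oxidants in milk, saliva and airway mucus. Trpm6 is a cation channel fused to a kinase, through which colon and kidney epithelium take up magnesium, and Tmem87a is a Golgi membrane protein with a seven-span fold. Myl7 is the regulatory myosin light chain of the atrium, Prune2 carries a BCH domain like that of BNIP2, and Slfn2 and Slfn4 are Schlafen genes, known in mouse for their expression in myeloid and lymphoid cells and for their induction by interferon.

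Nxpe4 was close to undetected in Eeyore mice and bright in the others. Its signal was 45.1, 3.21 and 28.9 in Eeyore, 2680, 3141 and 3693 in Winnie and 2246, 2429 and 3142 in wild-type mice. Eeyore mice lay far below both other groups, whose values overlapped. The Eeyore minus Winnie difference was -7.61 ± 0.70 on the log2 scale (standard error of the fit). Because 2 of the 3 Eeyore signals were under 41.1, a floor set at the lower quartile of the array with the brightest dim signals, the size is better read with dim signals raised to that floor, which gives a signal 74.1-fold lower in Eeyore than in Winnie mice and 60.8-fold lower than in wild-type mice. Against wild-type, limma gave -7.32 ± 0.70 (adjusted p = 3.52e-05) for Eeyore and 0.29 ± 0.70 (adjusted p = 0.802) for Winnie mice.

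Lpo showed the opposite pattern at high signal. It was 15675, 15505 and 11663 in Eeyore, 984, 823 and 955 in Winnie and 790, 726 and 468 in wild-type mice. No mouse of another group came near the Eeyore values, which were 15.4-fold those of Winnie mice (3.95 ± 0.19 on the log2 scale). Lpo was 4.46 ± 0.19 higher in Eeyore than in wild-type mice (limma, adjusted p = 5.16e-08), or 21.9-fold. In Winnie mice the difference from wild-type was 0.51 ± 0.19 (adjusted p = 0.0745), and the 3 Winnie values all lay above the 3 wild-type values.

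Tmem87a was detected well in Eeyore mice alone. The signal was 1459, 1235 and 1369 in Eeyore mice, against 6.45, 20.8 and 64.6 in Winnie and 107, 65.6 and 11.9 in wild-type mice. Both other groups scattered around the floor, with 3 of 6 signals below it, and overlapped. The probe set passed the filter on dim signals only through its Eeyore values (mean log2 of 6.74, against a limit of 6.43), so its difference had to be large. With signals raised to the floor, it was 28.3-fold higher in Eeyore than in Winnie and 20.5-fold higher than in wild-type mice. The fitted differences were 6.04 ± 0.84 for Eeyore minus Winnie and 4.95 ± 0.84 for Eeyore minus wild-type. With no filter on dim signals, limma's adjusted p for Eeyore minus wild-type was 0.000792. Winnie minus wild-type was -1.09 ± 0.84 (adjusted p = 0.382).

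**Figure D1:**
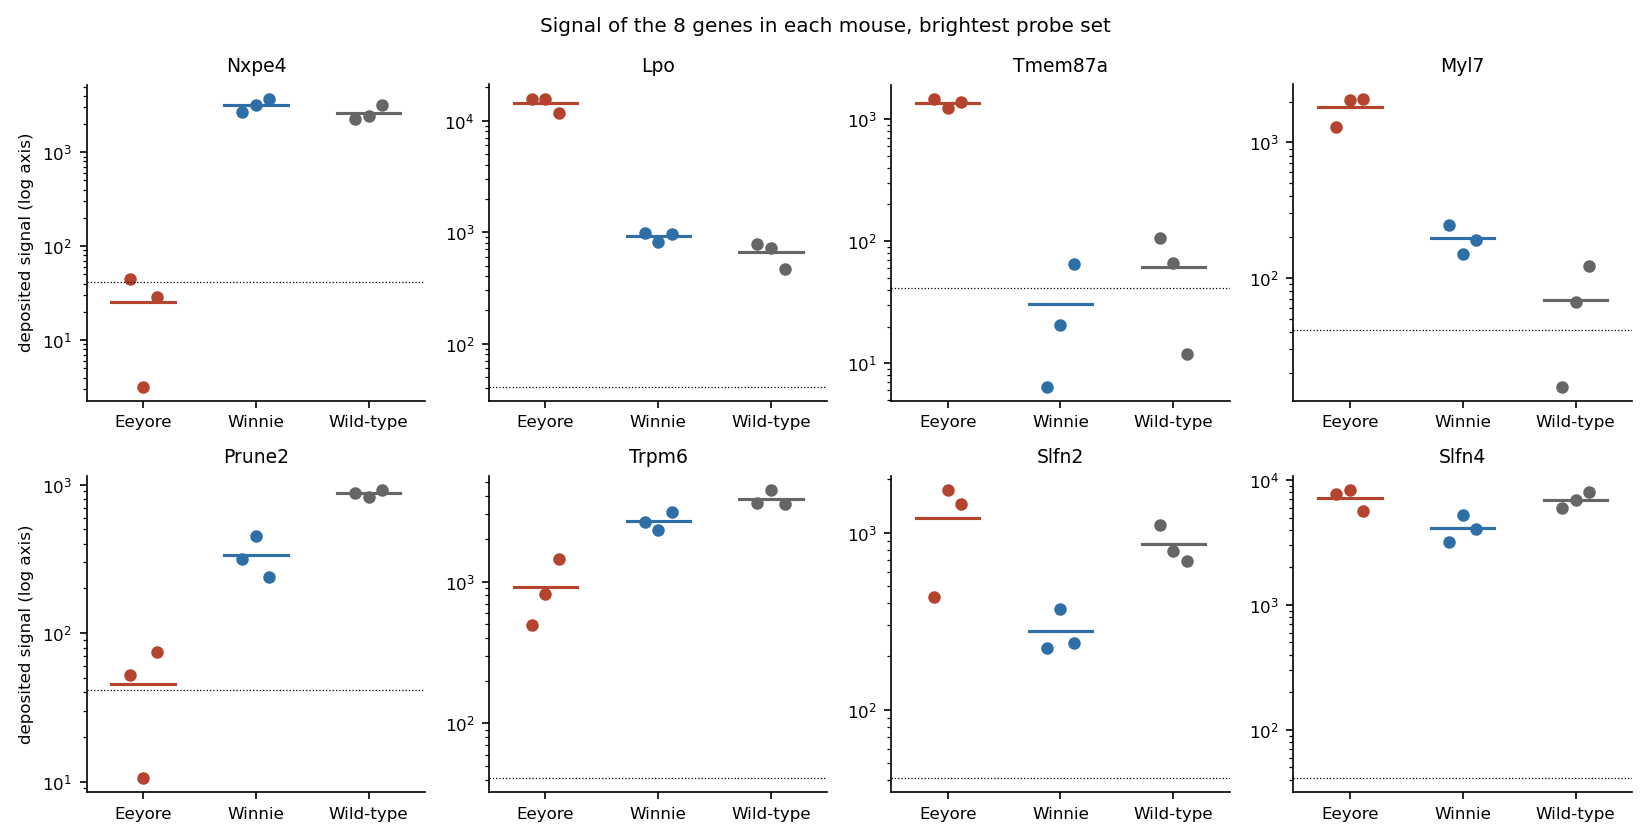
Deposited signal of each mouse on log axes for the brightest probe set of each of the 8 genes, with a line at the group mean and a dotted line at the floor of 41.1. Eeyore and Winnie mice overlap in none of the genes, the Nxpe4 signals of Eeyore mice lie at 3.21 to 45.1, and for Slfn2 and Slfn4 the Eeyore mice overlap with wild-type.

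For Myl7, Prune2 and Trpm6 the Winnie mice lay between the other groups. Myl7 signals were 1292, 2052 and 2093 in Eeyore, 247, 150 and 191 in Winnie and 15.8, 66.4 and 123 in wild-type mice. The 3 groups did not overlap. Myl7 was 9.22-fold higher in Eeyore than in Winnie mice (3.20 ± 0.57 on the log2 scale). Eeyore minus wild-type was 5.13 ± 0.57 (limma, adjusted p = 0.0001), 25.5-fold with the floor, and Winnie minus wild-type was 1.93 ± 0.57 (adjusted p = 0.0304), 2.76-fold with the floor. The Winnie call ended in 8 of 20 alternative settings, with an adjusted p of up to 0.0838.

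Prune2 was read by 4 probe sets, which did not move together. The brightest, 1432198_at, gave 51.9, 10.6 and 74.8 in Eeyore, 315, 450 and 239 in Winnie and 876, 828 and 913 in wild-type mice, again without overlap. It was 5.97-fold lower in Eeyore than in Winnie mice with the floor (-3.23 ± 0.56). Against wild-type it was -4.66 ± 0.56 in Eeyore (limma, adjusted p = 0.00017) and -1.43 ± 0.56 in Winnie mice (adjusted p = 0.0887). The second, 1455342_at, ran the other way between the strains, with 263, 297 and 231 in Eeyore, 107, 157 and 117 in Winnie and 203, 89.8 and 217 in wild-type mice. Here Eeyore mice were the highest, by 1.07 ± 0.35 over Winnie mice, and neither strain passed the test against wild-type (0.73 ± 0.35, adjusted p = 0.133, in Eeyore and -0.34 ± 0.35, adjusted p = 0.518, in Winnie mice). The other 2 Prune2 probe sets, 1430757_at and 1439274_at, were too dim to be tested and their groups overlapped in every comparison. The direction given for Prune2 therefore belongs to 1 probe set and not to the gene.

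Trpm6 was lower in Eeyore mice on both of its probe sets. The brighter, 1438877_at, gave 493, 822 and 1441 in Eeyore, 2634, 2311 and 3079 in Winnie and 3571, 4395 and 3516 in wild-type mice. The second, 1427642_at, gave 233, 364 and 469 in Eeyore, 551, 483 and 716 in Winnie and 1086, 1261 and 1048 in wild-type mice. Groups did not overlap on either, and the 3 Eeyore mice kept the same order on both. Eeyore minus Winnie was -1.67 ± 0.29 on the first and -0.75 ± 0.24 on the second. Eeyore minus wild-type was -2.19 ± 0.29 (limma, adjusted p = 0.000299) and -1.72 ± 0.24 (adjusted p = 0.000398). For Winnie mice the probe sets fell on different sides of the threshold, at -0.52 ± 0.29 (adjusted p = 0.22) and -0.97 ± 0.24 (adjusted p = 0.0139). The second call ended with median centring, without wild-type mouse 2 or without Winnie mouse 2, with an adjusted p of up to 0.0804.

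**Figure D2:**
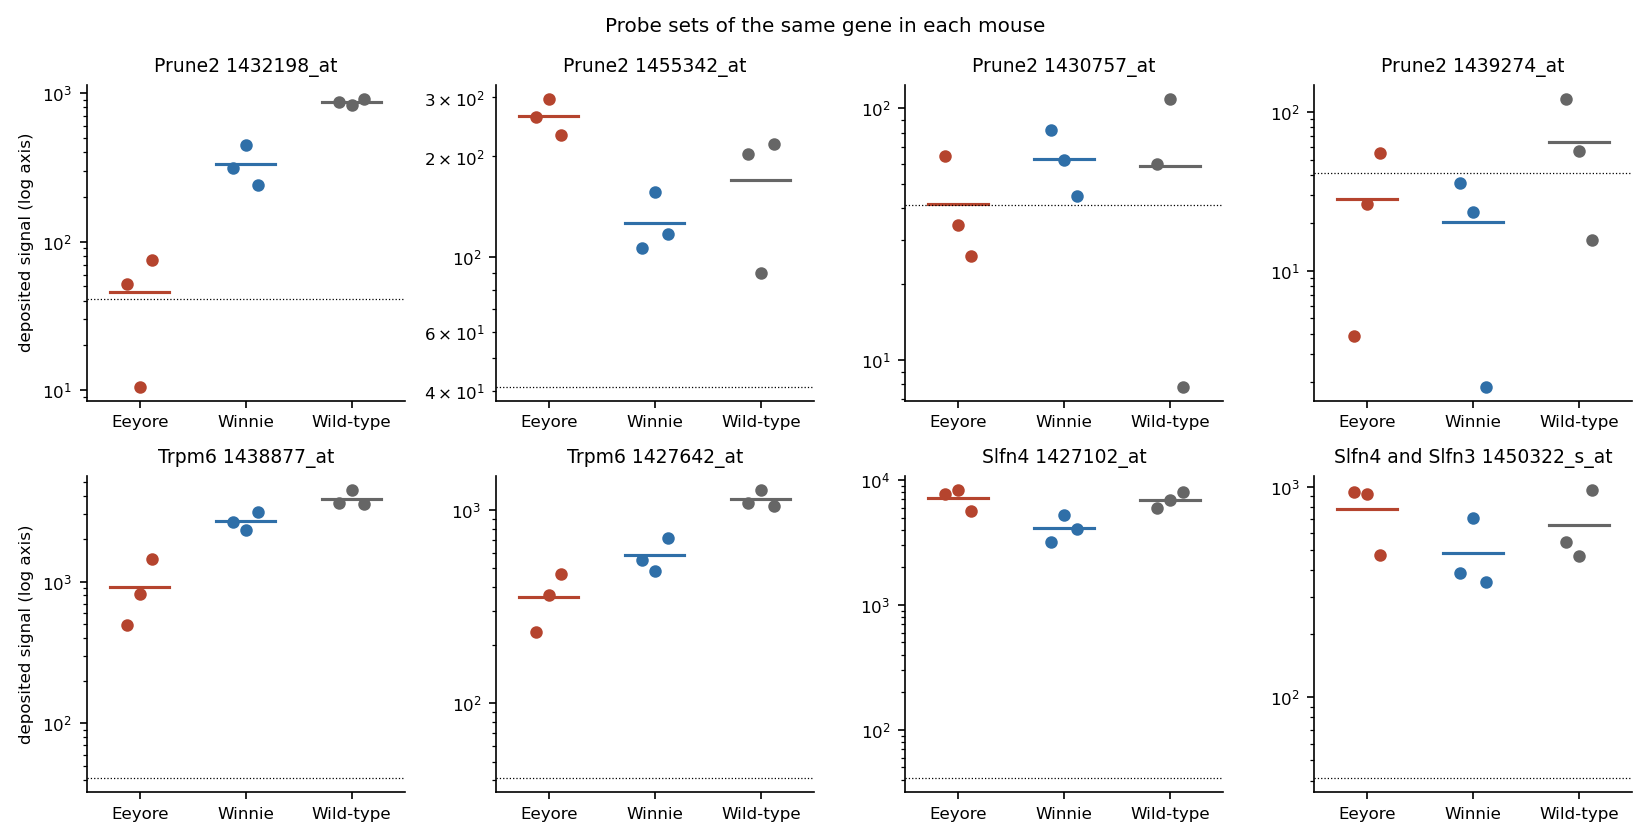
Deposited signal of each mouse, on log axes that differ between panels, for all probe sets of Prune2 and Trpm6, the Slfn4 probe set and the probe set shared by Slfn4 and Slfn3, with a line at the group mean and a dotted line at the floor of 41.1. The first Prune2 panel has Eeyore mice lowest and the second has them highest, whereas both Trpm6 panels have Eeyore mice lowest.

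The Schlafen genes differed between the strains in another way: Winnie mice were the low group and Eeyore mice overlapped with wild-type. Slfn2 was 436, 1735 and 1446 in Eeyore, 222, 372 and 237 in Winnie and 1110, 787 and 693 in wild-type mice. Eeyore mouse 1 was low, near the Winnie mice, and the other two were above every wild-type mouse. Winnie minus wild-type was -1.65 ± 0.42 (limma, adjusted p = 0.0167), Eeyore minus wild-type was 0.28 ± 0.42 (adjusted p = 0.643), and Eeyore minus Winnie was 1.93 ± 0.42. Without Eeyore mouse 1, Slfn2 was 0.90 higher in Eeyore than in wild-type mice (adjusted p = 0.0233), and the Winnie call ended without Winnie mouse 3, without wild-type mouse 1 or with no intensity trend (adjusted p of up to 0.068).

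Slfn4 was 7730, 8246 and 5632 in Eeyore, 3213, 5214 and 4045 in Winnie and 5935, 6907 and 8045 in wild-type mice. Winnie mice lay below both other groups. Winnie minus wild-type was -0.76 ± 0.19 (limma, adjusted p = 0.0132), Eeyore minus wild-type was 0.04 ± 0.19 (adjusted p = 0.89), and Eeyore minus Winnie, at 0.80 ± 0.19, was the smallest among the brightest probe sets of the 8 genes. Centring each array on its median moved the Winnie value to -0.35 (adjusted p = 0.214). A further probe set is shared by Slfn4 and Slfn3 and was not counted for either. It read 948, 923 and 473 in Eeyore, 389, 709 and 352 in Winnie and 547, 468 and 961 in wild-type mice, and its groups overlapped.

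Over the 8 genes, 3 were higher (Lpo, Tmem87a and Myl7) and 3 lower (Nxpe4, Prune2 and Trpm6) in Eeyore than in wild-type mice, where 14.0% and 16.6% of all tested genes were higher and lower, and 29.3% of probe sets differed. The call of Tmem87a was not free, since the filter let it in through its Eeyore values, and leaves 2 of the 7 other genes higher and 3 lower. In Winnie mice 1 was higher (Myl7) and 2 were lower (Slfn2 and Slfn4) than in wild-type, against 11.3% and 11.9% of all genes and 21.5% of probe sets in either direction. In each of these comparisons 6 of the 8 genes did not overlap between groups, against 45.1% of all probe sets for Eeyore and 42.2% for Winnie mice. Between Eeyore and Winnie mice 8 of 8 did not overlap, against 19.4% of all probe sets. The choice of genes for large differences made this likely, without requiring it. Of all tested probe sets, 2.30% passed limma's test between these strains. The comparisons with wild-type share the mutant mice with the comparison that chose the genes and share the wild-type mice with each other, so they are not independent evidence for the strain difference. At least 8-fold differences between Eeyore and Winnie mice were found in 54 probe sets, 0.240% of those tested.

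**Figure D3:**
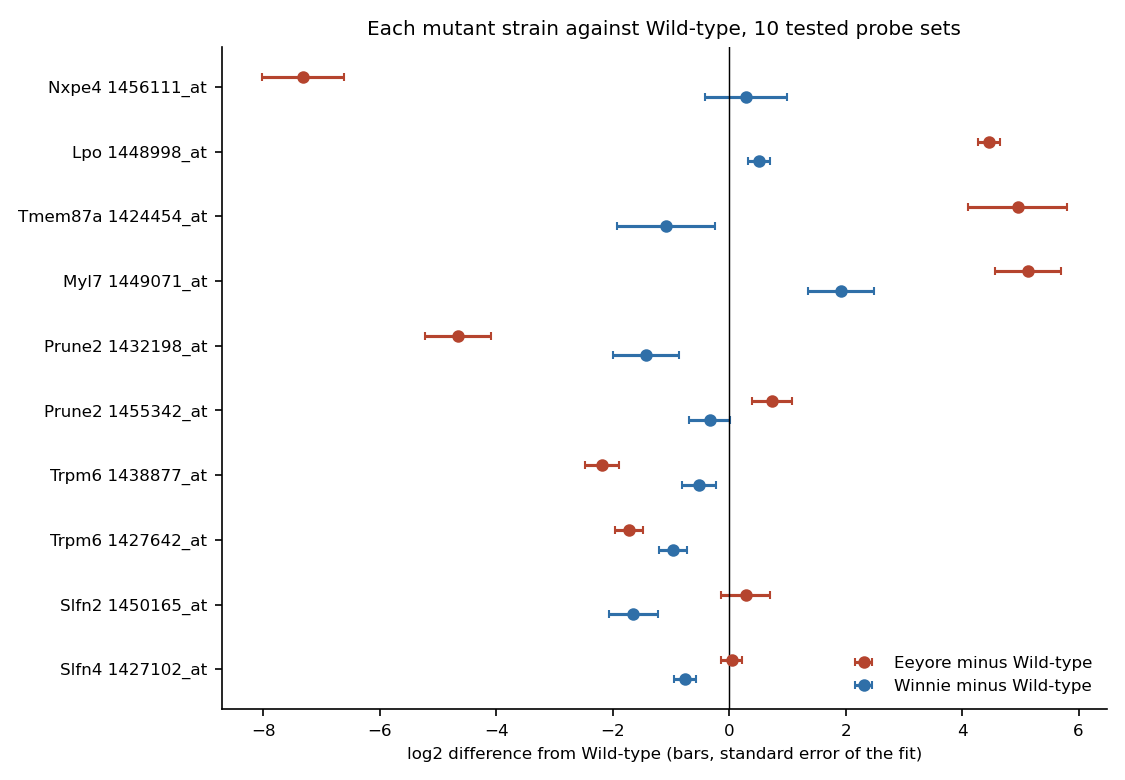
Log2 difference from wild-type with its standard error for the 10 tested probe sets of the 8 genes, Eeyore above Winnie. Nxpe4 (-7.32 and 0.29) and Lpo (4.46 and 0.51) depart from 0 mainly in Eeyore mice, whereas Slfn2 (0.28 and -1.65) and Slfn4 (0.04 and -0.76) do so in Winnie mice.

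The relatives of these genes were examined next. In the NXPE family, Nxpe2 averaged 579 ± 53.6 in Eeyore, 688 ± 250 in Winnie and 1685 ± 158 in wild-type mice. It was thus lower than wild-type by limma's test in Eeyore (-1.54, adjusted p = 0.000447) and in Winnie mice (-1.35, adjusted p = 0.00158), and the strains differed by -0.19 ± 0.22 (adjusted p = 0.734). These values rest on its brightest probe set: the mean over its probe sets gave -1.22 for Eeyore minus Winnie (adjusted p = 0.165) and ended the call in Winnie mice (-1.19, adjusted p = 0.0597). The 6 tested haem peroxidases and oxidase partners include Lpo, which was chosen for its difference between Eeyore and Winnie mice. Of these, 4, Lpo among them, were higher and 1 was lower in Eeyore than in wild-type mice. Over all tested genes 14.0% were higher and 16.6% lower, and the list was not tested as a set. The higher genes of the list included Noxo1, the organiser of the epithelial NADPH oxidase, at 4417 ± 494 in Eeyore, 3470 ± 598 in Winnie and 2786 ± 258 in wild-type mice (0.66 in Eeyore, adjusted p = 0.00408, and 0.31 in Winnie mice, adjusted p = 0.128). Cyba, the p22phox subunit, was 0.65 higher in Eeyore than in wild-type mice (adjusted p = 0.0103), and Ptgs2, the inducible cyclooxygenase, was 1.14 higher (adjusted p = 0.0117, but 0.102 as the mean over probe sets and 0.0502 without wild-type mouse 1). Pxdn, the matrix peroxidase peroxidasin, was lower in Eeyore (-0.88, adjusted p = 0.0098) and in Winnie mice (-0.83, adjusted p = 0.0173) than in wild-type. Both calls ended with median centring, and that in Winnie mice also when Winnie mouse 2 or either of wild-type mice 2 and 3 was left out. The leukocyte peroxidases Mpo and Epx were too dim to be tested. Neutrophil markers, 3 of 9 on the array tested, summed to 1166 to 1845 in Eeyore, 888 to 5102 in Winnie and 342 to 1345 in wild-type mice, and their part in the Lpo signal was not tested.

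Of 13 tested magnesium transport genes, 2 were higher and 2 lower in Eeyore than in wild-type mice, a share near that of all tested genes (14.0% higher and 16.6% lower). Besides Trpm6, Egf, the growth factor that stimulates Trpm6 in kidney, was lower (-1.11, adjusted p = 0.037), a call that ended in 8 of 20 alternative settings. Cnnm4, the basolateral magnesium exporter of the gut, was higher (0.59, adjusted p = 0.00247), as was Nipa2, a magnesium transporter (0.93, adjusted p = 0.000189). For Cnnm4 the mean over its probe sets gave 0.06 (adjusted p = 0.909) in place of 0.59. In the TRPM family, 1 of 5 tested genes, Trpm6 itself, passed the test in Eeyore mice and 0 of 5 did so in Winnie mice.

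Myosin genes differed from wild-type in both directions. Of 7 tested light chains and kinases, the chosen gene Myl7 included, 3 were higher and 3 lower in Eeyore than in wild-type mice, and 2 were higher and 3 lower in Winnie mice. Over all tested genes 14.0% were higher and 16.6% lower in Eeyore mice, and 11.3% higher and 11.9% lower in Winnie mice. Higher, as Myl7 was, was the non-muscle light chain Myl12a in Eeyore (0.55, adjusted p = 0.00137) and in Winnie mice (0.51, adjusted p = 0.00323), calls that ended with the mean over probe sets (0.27 and 0.10). Myl12b, named after its values were seen, was higher in Eeyore mice (0.26, adjusted p = 0.0365). Smooth muscle Myl9 was -1.60 in Eeyore (adjusted p = 5.16e-08) and -1.22 in Winnie mice (adjusted p = 2.81e-06), and its kinase Mylk was -1.62 (adjusted p = 1.56e-06) and -1.19 (adjusted p = 4.72e-05). The summed smooth muscle signal was 86350 to 95180 in Eeyore, 104200 to 113600 in Winnie and 218600 to 226300 in wild-type mice, the reverse of the order of Myl7. The atrial and ventricular muscle genes Myh6, Nppa, Tnni3 and Myl2 were too dim to be tested, and 11 markers of cardiac and skeletal muscle summed to 724 to 1028 in Eeyore, 953 to 1792 in Winnie and 1493 to 1842 in wild-type mice. Among 6 tested relatives of Prune2, itself included, Bnip2 was lower in Eeyore mice (-0.45, adjusted p = 0.0273, lost in 6 of 20 alternative settings), and among 5 tested relatives of Tmem87a, itself included, no other gene passed the test in Eeyore mice.

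Of the Schlafen family, 4 of 9 genes on the array were tested, and Slfn8 and Slfn9 passed in no comparison. For interferon-inducible genes, too, Winnie mice were the low group. Of 25 tested, 15 were higher and 0 lower in Eeyore than in Winnie mice, where 1.29% of all genes were higher, and the median difference was 1.18. In Winnie mice 16 were lower and 1 higher than wild-type (median -0.90), and in Eeyore mice 10 were higher and 1 lower (median 0.42). Over all tested genes 11.9% were lower and 11.3% higher in Winnie mice, and 14.0% higher and 16.6% lower in Eeyore mice. Ifit1, which binds viral RNA, averaged 2943 ± 546 in Eeyore, 695 ± 105 in Winnie and 3374 ± 597 in wild-type mice. It was 2.08 ± 0.18 higher in Eeyore than in Winnie mice (limma, adjusted p = 4.59e-05) and, like Slfn4, did not pass the test between Eeyore and wild-type mice (-0.20, adjusted p = 0.419). Usp18, which removes ISG15 from proteins, and Ifit2 were 2.20 (adjusted p = 0.000562) and 2.19 (adjusted p = 0.00165) higher in Eeyore than in Winnie mice.

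Among the 3 Eeyore mice, mouse 1 was low in Slfn2 and in several marker lists, not all of them of leukocytes. The mean log2 signal of the 25 interferon-inducible genes was 10.35, 10.93 and 10.85 in the 3 Eeyore mice, 9.35, 9.68 and 9.49 in Winnie and 10.34, 10.24 and 10.26 in wild-type mice. Eeyore mouse 1, low in Slfn2, was also the lowest Eeyore mouse here. The same held for 11 monocyte and macrophage markers (9.46, 10.13 and 10.19 in Eeyore mice), 5 tested T and NK lymphocyte markers (7.26, 7.84 and 7.70) and 9 B and plasma cell markers (8.94, 9.61 and 9.71). Summed T and NK markers were 1199 to 2220 in Eeyore, 587 to 778 in Winnie and 1258 to 1653 in wild-type mice. Of the 5 tested, 1, Gzma, was higher in Eeyore than in Winnie mice by limma's test (adjusted p = 0.00317), where 1.29% of all tested genes were higher. Gzma averaged 719 ± 260 in Eeyore, 79.5 ± 59.1 in Winnie and 570 ± 152 in wild-type mice, and makes up much of the difference in the sum. Of the monocyte and macrophage markers 0 of 11 passed limma's test between Eeyore and Winnie mice, and 3 did without Eeyore mouse 1. The part of these cells in the Schlafen signals was not tested. In Slfn4, Eeyore mouse 3 and not mouse 1 was the lowest.

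**Figure D4:**
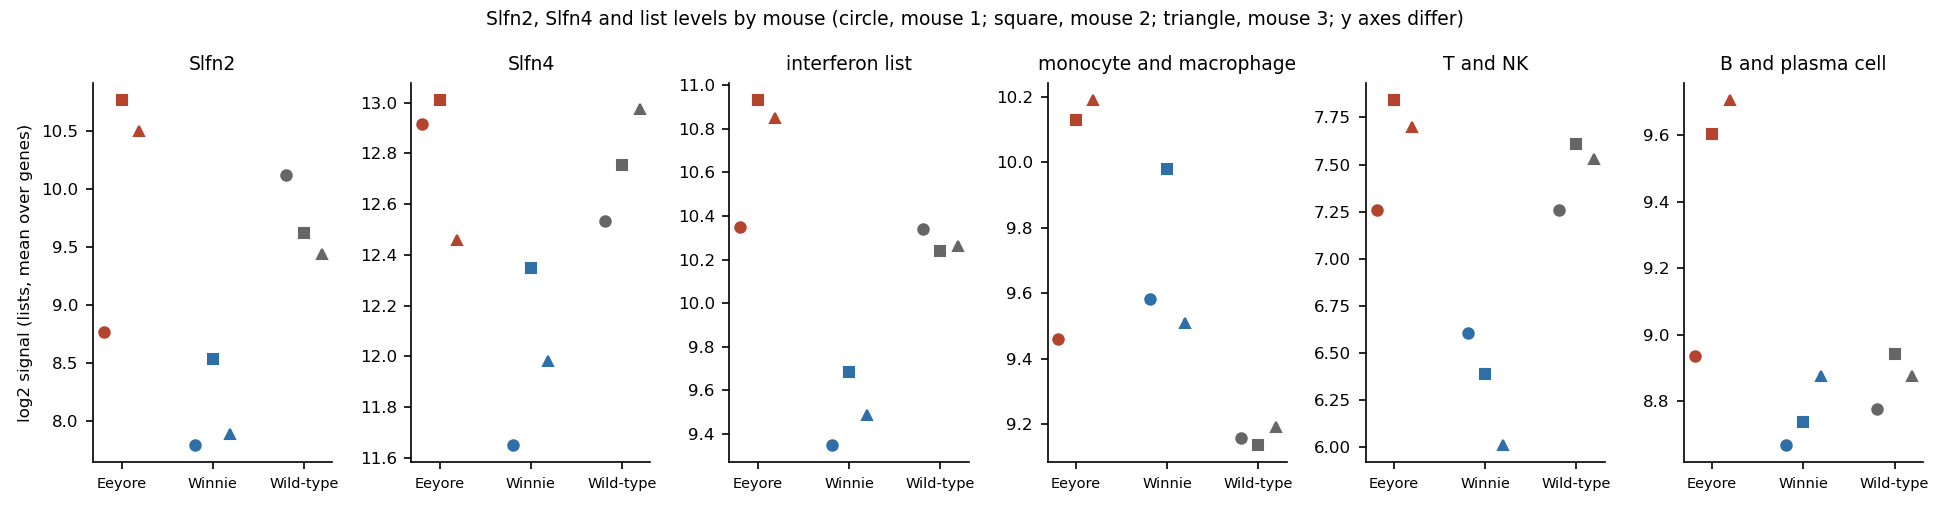
Log2 signal of Slfn2 and Slfn4 and mean log2 signal of 4 gene lists in each mouse (circle, mouse 1; square, mouse 2; triangle, mouse 3; y axes differ). Eeyore mouse 1 is the lowest Eeyore mouse in Slfn2 and in all 4 lists. Winnie mice are the lowest group, without overlap, in Slfn2, Slfn4, the interferon list and the T and NK list. Wild-type mice are lowest in the monocyte and macrophage list, and Winnie and wild-type mice overlap in the B and plasma cell list.

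The start regions of Slfn2 and Slfn4 are shown because interferon regulatory factors act on interferon-inducible promoters through repeats built on the core AANNGAAA. The sequences are those of RefSeq for GRCm38.p6, from 250 bases before to 50 after the annotated start, with matches to the core on either strand in capitals.
Slfn2, chr11:83064862-83065161, plus strand: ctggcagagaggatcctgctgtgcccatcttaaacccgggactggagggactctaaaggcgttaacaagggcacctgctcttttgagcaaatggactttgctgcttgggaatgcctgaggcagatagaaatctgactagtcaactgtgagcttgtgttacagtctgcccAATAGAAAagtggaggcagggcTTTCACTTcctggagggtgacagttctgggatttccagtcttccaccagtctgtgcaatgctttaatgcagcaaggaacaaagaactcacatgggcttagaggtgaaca
Slfn4, chr11:83174936-83175235, plus strand: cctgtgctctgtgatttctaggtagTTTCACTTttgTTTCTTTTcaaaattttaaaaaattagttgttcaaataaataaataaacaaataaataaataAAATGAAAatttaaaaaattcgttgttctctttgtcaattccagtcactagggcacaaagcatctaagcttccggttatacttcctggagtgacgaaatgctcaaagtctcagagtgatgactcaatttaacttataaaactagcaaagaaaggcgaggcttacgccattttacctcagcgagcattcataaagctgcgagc
Slfn2 has matches beginning at positions -81 and -59 and Slfn4 at -225, -214 and -152 relative to the start. The core is in 23.9% of 32851 promoters of this length and in 14 of the 19 interferon-inducible genes with a promoter in the table. None of the other 6 genes has one in this window. G and C bases made up 33.7% of the Slfn4 window, under the 10th percentile of all promoters (39.7%), and 49.7% of the Slfn2 window. The share of 23.9% was not matched for base content. A match is a description of the reference sequence and not of a bound site.

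Position on the chromosome was not used to pick the genes. In the GRCm38.p6 annotation Lpo, Myl7, Slfn2 and Slfn4 are on chromosome 11, Prune2 and Trpm6 on 19, Nxpe4 on 9 and Tmem87a on 2. Slfn2 and Slfn4 have 0 tested genes between them and Prune2 and Trpm6 have 7, whereas 45 separate Slfn4 from Lpo and 481 separate Myl7 from Slfn2. Of the 127 nearest tested genes, 10 on each side of each member, 5 passed limma's test between Eeyore and Winnie mice (2 higher and 3 lower), or 3.94%, against 2.59% of all tested genes. The median size of their log2 difference was 0.24, against 0.19 over all genes. Around Nxpe4, Lpo, Tmem87a and Myl7, 1, 1, 0 and 0 of 20 neighbours passed. With 3 mice per group, a test not passed does not show that a neighbour was unchanged. Nnmt near Nxpe4 was -1.22 (adjusted p = 0.0829) and Itpka near Tmem87a was 1.14 (adjusted p = 0.0502), each in the member's direction. Mga, also near Tmem87a, went the other way (-0.73, adjusted p = 0.0596). These differences were smaller than those of the members.

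Around Prune2 and Trpm6, 2 of 19 neighbours passed, both lying between them and both lower in Eeyore mice, as the brighter probe sets of Prune2 and Trpm6 were. Gcnt1, next to Prune2, makes the core branch of O-glycans. It averaged 437 ± 44.3 in Eeyore, 996 ± 140 in Winnie and 1401 ± 49.1 in wild-type mice, the order of Trpm6, with an Eeyore minus Winnie difference of -1.19 ± 0.15 (adjusted p = 0.000829). The mean over its probe sets gave -0.47 (adjusted p = 0.263). D030056L22Rik, next to Trpm6, averaged 265 ± 80.7 in Eeyore, 644 ± 59.5 in Winnie and 505 ± 66.9 in wild-type mice (-1.33 ± 0.23, adjusted p = 0.0083, and 0.0522 without Winnie mouse 3). The other neighbours that passed were Scpep1 near Lpo, a serine carboxypeptidase (0.83, adjusted p = 0.0401), Ccl6 near the Schlafen genes, a chemokine of myeloid cells (0.57, adjusted p = 0.0155, but 0.113 with no intensity trend, 0.0567 without Eeyore mouse 2 and 0.069 without Winnie mouse 3), and Tagln near Nxpe4, a smooth muscle gene (-0.34, adjusted p = 0.0367). By chromosome, the share of tested genes that passed was 3.62% on 11, 4.02% on 19, 2.68% on 9 and 3.44% on 2, within a range over autosomes of 0.745% on 10 to 4.79% on 12.

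**Figure D5:**
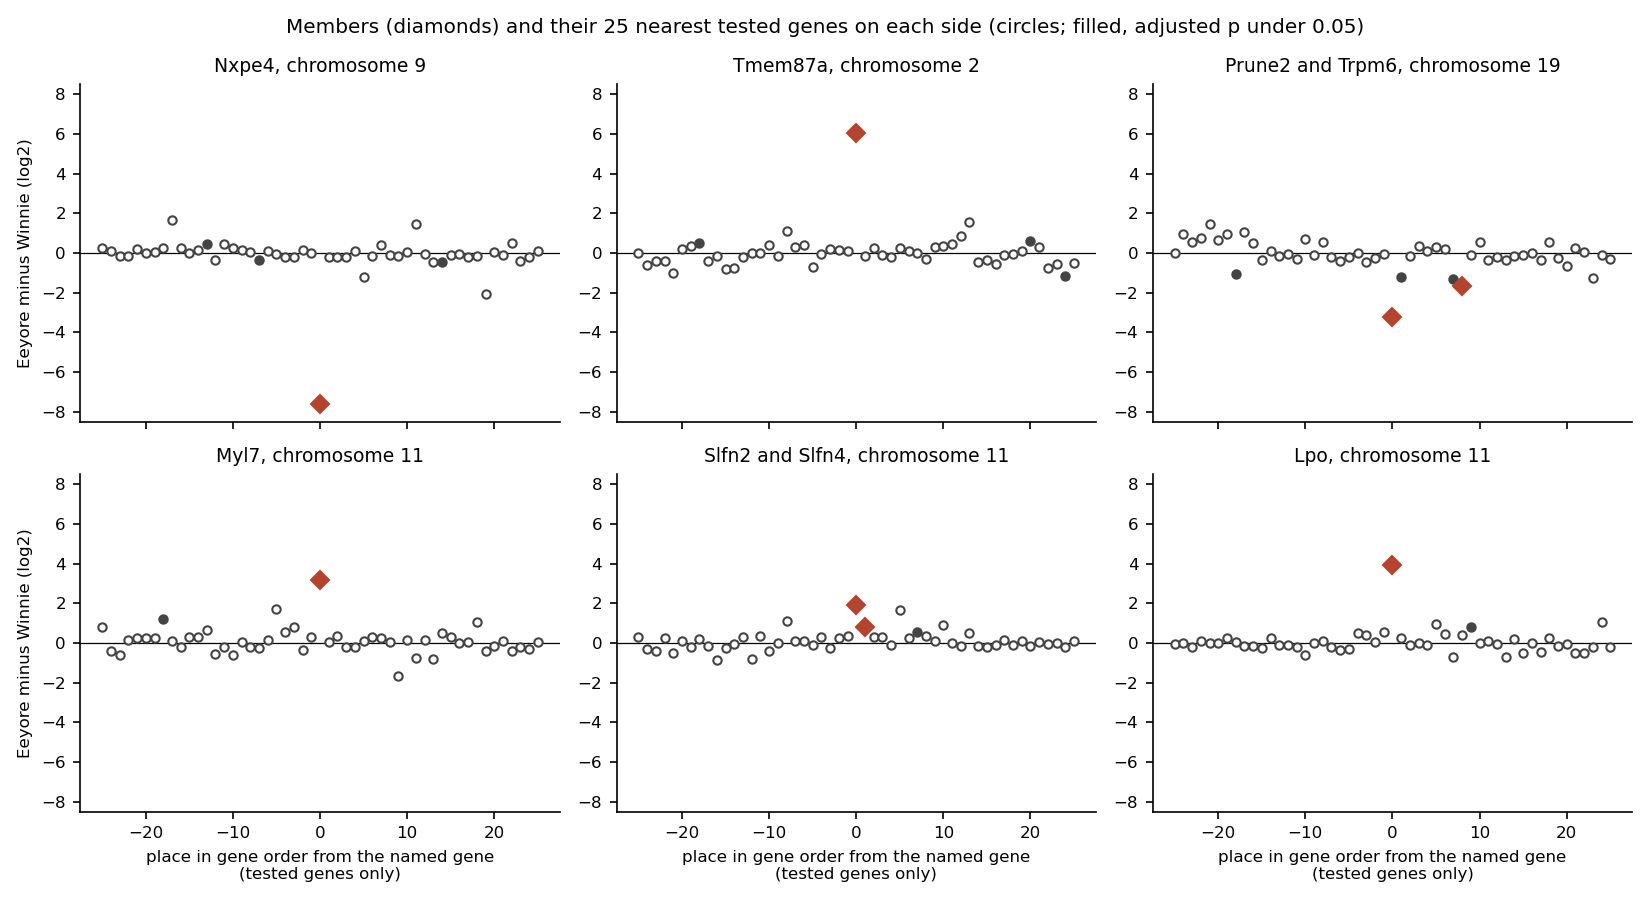
Eeyore minus Winnie log2 difference of each member (diamonds) and of the 25 nearest tested genes on each side in gene order (circles, filled where limma's adjusted p was under 0.05). Nxpe4 (-7.61), Tmem87a (6.04) and Lpo (3.95) stand alone among their neighbours, and 2 filled circles lie between Prune2 and Trpm6.

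Genes whose log2 signal followed that of a member most closely over the 9 arrays are given as a description, since all arrays fall into the same 3 groups. Nxpe4 was followed by Tspan3 (Pearson's r = 0.983), a tetraspanin that is also on chromosome 9, and by Iyd (0.976), an iodotyrosine deiodinase. Tspan3 averaged 6040 ± 249 in Eeyore, 7656 ± 138 in Winnie and 7716 ± 314 in wild-type mice, a far smaller difference than that of Nxpe4. Lpo was followed by Igsf23 (0.986) and the adhesion molecule Nectin2 (0.985). Igsf23 averaged 2637 ± 241 in Eeyore, 488 ± 57.2 in Winnie and 358 ± 112 in wild-type mice. Tmem87a was followed by the phosphatase Inpp4b (0.961) and by Ctrc (0.955), a pancreatic chymotrypsin, and Myl7 by Nipa2 (0.979) and 1500011B03Rik (0.973). Prune2 was followed by Pdgfd (0.978), a platelet-derived growth factor, and by Iyd (0.977), and Trpm6 by Zfp932 (0.981) and Mfap3 (0.977). Slfn2 was followed by Cd79b (0.977), a subunit of the B cell receptor, and by the interferon-inducible Trim30a (0.970), and Slfn4 by Gne (0.951), which starts sialic acid synthesis, and Scml4 (0.936).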

How the data were processed

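RNA of 9 mice was hybridised by the authors to Affymetrix Mouse 430 2.0 arrays. Per the labels and the values, the intensity deposited by the authors is on a linear scale with a mean of 500 after trimming 2% at each end. The algorithm is not given in the sources used here, and neither detection calls nor probe sequences were used here. The number of arrays limits the precision. Symbols came from the platform annotation (34945 probe sets with 1 gene, 932 with several, 9160 with none). Of 45037 non-control probe sets, those whose log2 signal, averaged over arrays, reached the 50th percentile (22519, with a limit of 6.43) entered 1 linear model in limma (version 3.58.1, R 4.3.3; 3 groups, eBayes with an intensity trend, Benjamini-Hochberg threshold of 0.05). The 8 genes have 12 probe sets, of which 10 were tested, and a gene was represented by its brightest one. P-values measure the spread between mice. The fit was tested on simulated data. The members, the gene lists and the rule for naming genes were chosen with earlier results of these data known. The rule names all members, the 2 genes of highest correlation with each, neighbours that passed with the 6 largest differences, up to 4 called genes of each family list and up to 3 bright markers of each marker list. Alternatives were quantile normalization, median centring, other filters, a pseudocount of 32, the floor, other variance models, only the groups compared, a mouse block, leaving out each mouse, a 2-fold call, ratios of group means and the mean over probe sets. Python 3.11.15 and matplotlib 3.10.9 drew the figures.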

Additional observations from a re-analysis of the deposited data

Results flagged for a closer look

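Among named neighbours and genes of the family lists, 11 that are not members differed by limma's test of Eeyore against Winnie mice. The neighbours among them were named because they passed, so the count is partly fixed by the naming. Genes named for their correlation with a member are not counted. Some of those passed too, such as Igsf23 (2.44, adjusted p = 4.59e-05) and Ctrc (4.53, adjusted p = 0.000149). D030056L22Rik (-1.33, adjusted p = 0.0083) and Gcnt1 (-1.19, adjusted p = 0.000829) lie between Prune2 and Trpm6, and Usp18 (2.20), Ifit2 (2.19), Ifit1 (2.08) and Rsad2 (1.39, adjusted p = 0.000336) are interferon-inducible, as the Schlafen genes are. Rsad2, the antiviral enzyme viperin, averaged 1462 ± 112 in Eeyore, 564 ± 121 in Winnie and 2693 ± 140 in wild-type mice. The other neighbours were Scpep1 (0.83), Ccl6 (0.57) and Tagln (-0.34). Among relatives of Trpm6 and Myl7, Nipa2 (0.53, adjusted p = 0.0319) and Myl9 (-0.38, adjusted p = 0.01) differed. The calls of Tagln, Scpep1 and Nipa2 ended in 11, 10 and 9 of 21 alternative settings, and those of Ccl6 and Myl9 in 3 each.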

How the results depend on the processing

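Eeyore minus Winnie differences of the 10 probe sets kept their direction in 200 of 200 alternative values, and 197 stayed within the spread between mice. That direction was largely fixed in advance, since the genes were picked on this difference and the groups did not overlap. Leaving out a mouse could not reverse it, and other filters and variance models leave the estimate unchanged. The count is thus no support for the difference. With 32 added to each signal Nxpe4 moved to -5.86 and Tmem87a to 4.57, and with the floor Tmem87a moved to 4.82. Against wild-type, 367 of 400 alternative values kept direction and side of the threshold, 15 lost the call, 11 gained it and 7 changed direction. The 6 calls in Eeyore mice held in every alternative that tested the gene. Tmem87a fell under the filter, and was not tested, at the 75th percentile and when any Eeyore mouse was left out. Myl7 and Prune2 also were not tested at the 75th percentile. Prune2 was not tested as the mean over its probe sets either, the setting that would join its differing probe sets. In Winnie mice Lpo gained a call with median centring and with the block, Prune2 in 5 settings and Trpm6 with only the groups compared (adjusted p = 0.0195). The number of arrays and signals under the floor limit the sizes given for Nxpe4, Tmem87a, Prune2 and Myl7.

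Median centring moved the median difference over all tested probe sets to 0.24 in Eeyore and 0.32 in Winnie against wild-type, in place of -0.09 in both. Probe sets higher and lower were then 6350 and 1877 for Eeyore against wild-type (2747 and 3842 as deposited), 7234 and 853, in all 8087, for Winnie against wild-type (2195 and 2639), and 180 and 364 for Eeyore against Winnie (240 and 279). The filter at the 75th percentile gave 2453 and 1873, in all 4326, for Eeyore and 2095 and 1453 for Winnie against wild-type, from fewer probe sets. Quantile normalization gave 3120 and 2999 for Eeyore and 2385 and 1989 for Winnie. A 2-fold call left 275 for Eeyore against Winnie, 2447 for Eeyore and 1541 for Winnie against wild-type, and no intensity trend left 282 for Eeyore against Winnie. When a mouse was left out, 297 (Winnie mouse 3) to 858 (Eeyore mouse 1) differed between Eeyore and Winnie (332 for Eeyore mouse 2), 4466 to 6804 between Eeyore and wild-type, and 2900 (wild-type mouse 2) to 5203 between Winnie and wild-type (3016 for wild-type mouse 1 and 3168 for Winnie mouse 2). Of the neighbouring genes 12 passed with the filter at the 75th percentile or with 25 genes on each side, 2 with no filter, no trend or a 2-fold call, and 1 (Winnie mouse 3) to 8 (Eeyore mouse 1) when a mouse was left out (3 for Eeyore mouse 2). The cause of these shifts was not tested.

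Mouse numbers did not pair the samples (9 correlations of -0.00821 to 0.164). With the number as a block 524 probe sets passed for Eeyore against Winnie, 6604 for Eeyore and 4872 for Winnie against wild-type, and 6 neighbouring genes.

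Values near 0 changed direction in some settings. Winnie minus wild-type became 0.072 (median centring) and 0.0054 (quantile) for the second Prune2 probe set. Eeyore minus wild-type became 0.13 for Ifit1 with median centring and -0.10 for Slfn4 with quantile normalization. It ran, when a mouse was left out, from -0.092 (Eeyore mouse 2) to 0.90 (Eeyore mouse 1) for Slfn2 and from -0.069 (wild-type mouse 1; also below 0 for Eeyore mouse 1 or 2) to 0.21 for Slfn4. Eeyore minus Winnie of Nxpe2 ran from -0.44 to 0.081 (Winnie mouse 3) when a mouse was left out and was -1.22 as the mean over probe sets.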
